A study of Mus musculus with 18 samples.

Results

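The homeobox genes of the 4 mammalian Hox clusters were followed through every group of the series. Members were all genes whose symbol is Hox, a cluster letter from a to d and a paralog number. Of 39 such symbols, 37 are reported here, among 37620 gene IDs counted. Hoxd4 has an annotated ID that the count tables do not list, and it has no value here. The series measured polyadenylated RNA in mice of a C57B6/129 hybrid strain that were wildtype (WT) or expressed a mutant histone H3 with methionine in place of lysine 9 (K9M) or of lysine 36 (K36M). The labels give 1 treatment for all groups, WT included: mice of 6 to 8 weeks drank water with 2 mg/ml doxycycline, which induced the mutants. Both sexes were used in the study. The mice that gave testes, and with them intestine, were males, and the sex of the marrow mice is not given in the sources used here. RNA came from bone marrow cells lacking lineage markers and carrying cKit (blood stem and progenitor cells, called marrow below), from dissociated intestinal cells and from dissociated testes cells. There were 9 groups with 1 library from each of 2 mice. The same 6 mice gave intestine and testes and 6 others gave marrow, so tissue and mouse cannot be told apart for marrow. The promoter that drives the histone and the time of induction are not given in the sources used here.

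Hox genes encode transcription factors that give cells their position along the body axis. Genes at the 3' end of a cluster (low paralog numbers) act toward the head and genes at the 5' end (high numbers) toward the tail, and each cluster is switched on in that order in the embryo. Trithorax and MLL proteins, with the H3K36 methylases that accompany transcription, keep active members on, and Polycomb proteins keep inactive members off. In adult blood, HoxA genes and part of HoxB mark stem and early progenitor cells and fade as cells mature, and Hoxa9 with its cofactor Meis1 is known for driving leukemia.

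Libraries held 13396303 to 21417915 gene counts, and Hox genes took few of them, from 21 in an intestine library to 2814 in a testes library. Markers of each tissue were summed in its own libraries only, so the sums do not test the labels against the other tissues. All CPM values are on the TMM scale of the tissue (counts over a library total adjusted for library composition). Summed CPM of epithelial markers in intestine ran from 9148 to 12451, of spermatid markers in testes from 8722 to 27217 and of stem and multipotent markers in marrow from 399 to 875. The mutant histone's own transcript was not analysed here, so the genotype labels were not checked. Between the 2 mice of a group the chi-square per degree of freedom over genes was lowest in WT testes (2.26) and highest in K36M intestine (59.1), above the sampling noise of counts.

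Sequences before 4 members on which the results turn are shown with their CpG content, a feature that Polycomb and MLL complexes are known to read. Each line gives the 150 bases before a RefSeq transcription start (GRCm38.p6), 5' to 3' on the gene's strand, with CG dinucleotides in capitals. Hoxb4 fell in K36M marrow (chr11:96318117-96318266, plus strand), Hoxc4 appeared there (chr15:103034245-103034394, plus), Hoxa5 fell there and holds the most CpG of the 4 (chr6:52204588-52204737, minus) and Hoxd8 was abundant in testes (chr2:74704465-74704614, plus).
Hoxb4: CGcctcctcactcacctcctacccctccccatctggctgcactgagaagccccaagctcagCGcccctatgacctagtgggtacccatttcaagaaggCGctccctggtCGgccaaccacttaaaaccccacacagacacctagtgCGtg
Hoxc4: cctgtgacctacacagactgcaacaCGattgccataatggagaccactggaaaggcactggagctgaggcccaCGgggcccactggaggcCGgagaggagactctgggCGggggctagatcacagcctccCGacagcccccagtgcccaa
Hoxa5: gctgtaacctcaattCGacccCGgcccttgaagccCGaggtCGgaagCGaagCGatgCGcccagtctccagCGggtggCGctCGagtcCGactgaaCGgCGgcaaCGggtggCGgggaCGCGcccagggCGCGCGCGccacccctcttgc
Hoxd8: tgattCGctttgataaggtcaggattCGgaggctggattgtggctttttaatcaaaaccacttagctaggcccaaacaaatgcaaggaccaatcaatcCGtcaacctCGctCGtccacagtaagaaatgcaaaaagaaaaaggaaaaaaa
These windows held 5 CG in Hoxb4, Hoxc4 and Hoxd8 and 21 in Hoxa5. Over 24 windows of 22 members with an entry the median was 6.5 CG, against 4 over 32851 windows of 27025 genes. The CCAAT box, searched as CCAAT on either strand, stood in 45.8% of the Hox windows and 24.5% of all windows, Hoxd8 among the former. These are letter matches, and nothing was measured at these sites here.

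In WT marrow, Hox transcripts came mainly from HoxA, Hoxb4 and Hoxb3. A gene counts as detected here where both libraries of a group reached 1 CPM, and 8 of 37 members were: 6 of HoxA and 2 of HoxB. HoxA held 68.0% of Hox counts in each WT library and HoxB 31.4% and 31.8%. No HoxD gene had a count in either WT marrow library, where 3 counts, the limit that a count of 0 allows, correspond to 0.141 and 0.138 CPM. Such limits and the intervals below cover counting error only.

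Levels of different genes are compared only per kilobase of exon, as CPM per kilobase on the scale of the 6 WT libraries. Hoxb4, which expands blood stem cells when overexpressed, led marrow at 5.29 and 5.48. Hoxa9 followed at 2.72 and 3.06, Hoxa7 at 3.07 and 2.49, and Hoxa6 at 2.26 and 2.76, and these 3 overlapped one another. Hoxb4 stood above all of them in both mice. Next came Hoxa5 at 1.67 ± 0.182 (SD, n = 2) and Hoxa10 at 0.627 ± 0.186, and no other member's mean exceeded 0.447.

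WT testes had another pair of leading genes. Hoxa4, known from male germ cells, stood at 31.4 and 32.3 per kilobase, and Hoxd8 at 17.6 and 18.7, far above every other member in both mice. Hoxa6 (1.59 and 0.932) and Hoxd9 (0.924 and 1.46) came next and overlapped. HoxD held 44.2% and 45.4% of Hox counts, HoxA 48.0% and 45.9%, and 34 of 37 members had at least 1 count. Hoxa4 and Hoxd8 both belong to the middle paralogs (4 to 8), which held 4222 of the WT testes Hox counts against 301 of the anterior (1 to 3) and 365 of the posterior ones (9 to 13).

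WT intestine carried little Hox RNA. No member was detected at 1 CPM in both libraries, and Hox counts were 140 in WT.1476 and 45 in WT.1477. Per kilobase the highest were Hoxa5 (0.532 and 0.337), Hoxa6 (0.527 and 0.310), Hoxa4 (0.433 and 0.340) and Hoxb4 (0.688 and 0.0705), whose ranges overlap. Hoxb13, a hindgut gene, had 5 counts in each WT library.

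**Figure D1:**
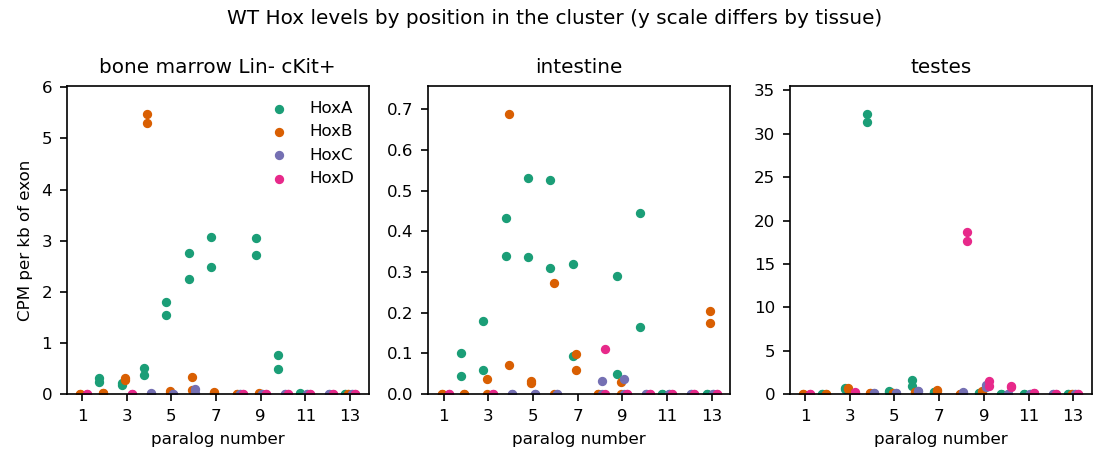
Levels of Hox genes in the WT libraries as CPM per kilobase of exon (y, a different scale per tissue) against paralog number (x), coloured by cluster; each point is 1 of 2 mice. Hoxb4 and HoxA genes 5 to 9 stand out in bone marrow, and Hoxa4 and Hoxd8 in testes.

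Tissue differences in WT were tested with edgeR's quasi-likelihood test over 6 libraries, with Benjamini-Hochberg adjustment over all 19981 genes tested. Of 18 Hox members tested between testes and marrow all 18 passed, 11 higher in testes and 7 higher in marrow, where 84% of all genes tested did. Hoxa4 rose from 41 counts in marrow to 1999 in testes (log2 6.14 ± 0.24), and Hoxd8 from 0 to 1969, at least 958-fold by a floor of 3 counts over the group. Hoxb4 went the other way, from 794 counts to 15 (log2 -5.15 ± 0.66). Hoxa3, needed for thymus and parathyroid, was higher in testes (1.74 ± 0.38), as was Hoxb3 (1.14 ± 0.35). Without testes mouse WT.1477 the count of 18 dropped to 11.

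Between intestine and marrow 7 of 18 were called, all lower in intestine (65.9% of all genes tested were called). Hoxa9 went from 927 counts to 24 (log2 -4.03 ± 0.53) and Hoxa7 from 459 to 15 (-3.69 ± 0.45). Between intestine and testes 13 were called (83.2% of all), 12 higher in testes. Hoxa10 was the exception, at 25 counts in intestine and 3 in testes, a ratio of 13.6 (95% counting interval 4.15 to 70.4). Intestine and testes of a number came from the same mouse, and with the mouse as a block 12 were called. The median log2 difference of all genes depended on scaling, -0.64 on the TMM scale and -1.27 on library size for intestine against testes. Hoxa9 in that comparison was 0.17 against -0.46, so its sign depended on the scaling, and Hoxa5 was 0.54 against -0.09.

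**Figure D2:**
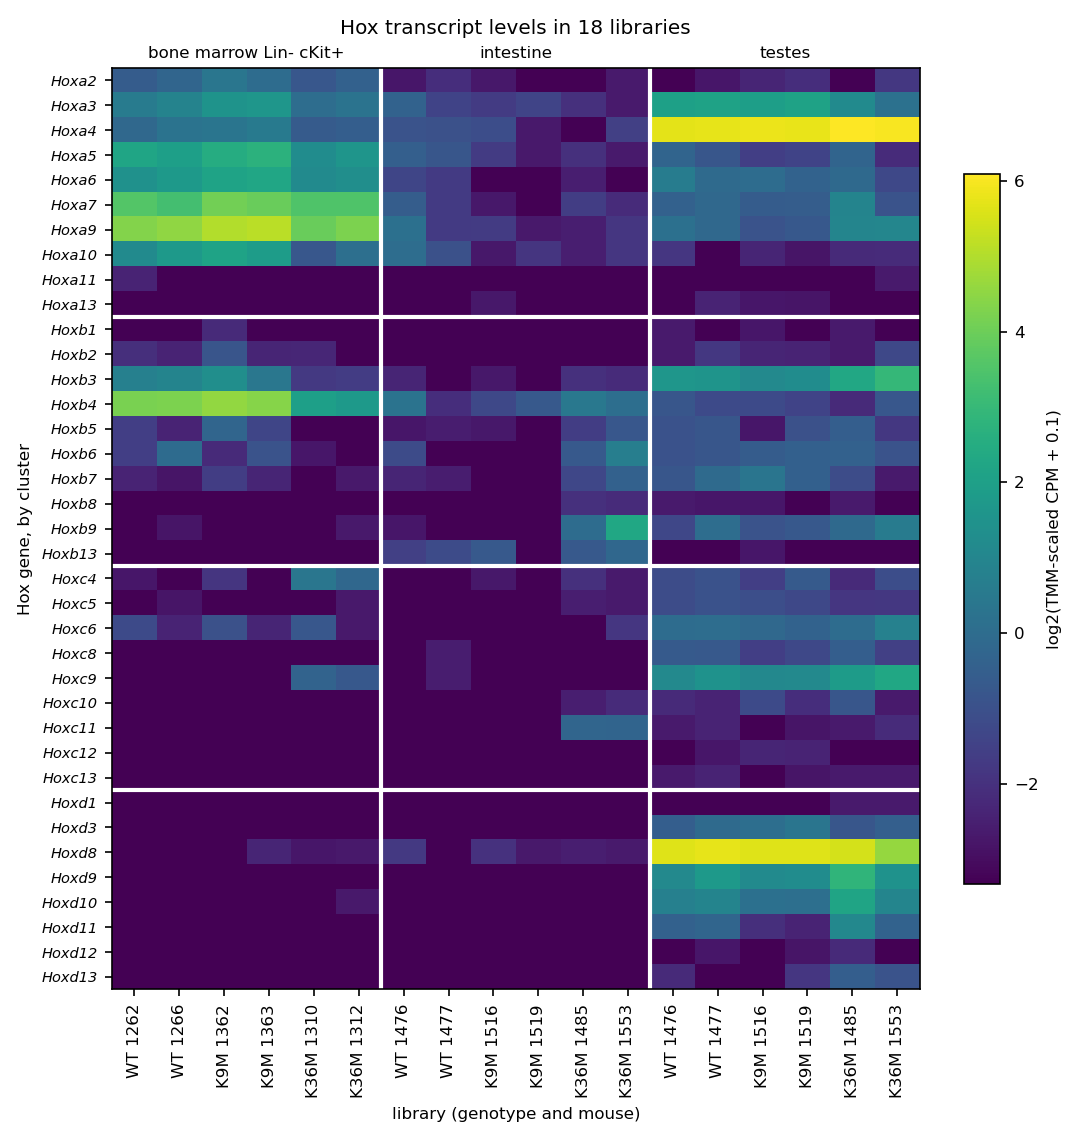
Hox transcript levels as log2(TMM-scaled CPM + 0.1) (colour) in 18 libraries (columns, by tissue, genotype and mouse) for 37 genes (by cluster, down the side). The HoxA and HoxB block in bone marrow, Hoxa4 and Hoxd8 in testes and the near-empty intestine columns are the main features; among the marrow columns, Hoxc4 and Hoxc9 are bright in K36M.

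In K36M marrow, Hoxb4, Hoxb3, Hoxa10 and Hoxa5 fell, and reads of Hoxc4 and Hoxc9 appeared. Within a tissue, edgeR was run on its 6 libraries, and a gene rose or fell only where its adjusted p was under 0.05. Of 11 members that passed the low-count filter, 4 fell and 1 rose, where 48% of all genes tested were called, so the number called is near the background. HoxA's share of Hox counts was 83.4% and 88.2% in K36M, HoxB's 10.6% and 8.38%, and HoxC's 5.90% and 3.17%. The WT mice had HoxC shares of 0.578% and 0.202%.

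Hoxb4 had 386 and 408 counts in WT, 411 and 434 in K9M and 79 and 60 in K36M. Both K36M mice lay far below the other 4. On the TMM scale it went from 18.4 ± 0.462 to 3.62 ± 0.417 CPM (SD, n = 2), a log2 fold change of -2.34 ± 0.16 (SE; adjusted p = 5.29e-05). Hoxb3, its neighbor in the cluster, had 34 and 39 counts in WT, 42 and 26 in K9M and 4 and 4 in K36M, and fell by 2.98 ± 0.50 (adjusted p = 0.00217). Exons of Hoxb3 overlap those of Hoxb3os on the opposite strand, and how reads in the overlap were assigned is not known. Hoxb3os itself was at 126 counts in WT and 56 in K36M without passing (edgeR adjusted p = 0.0826).

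The other low HoxB genes were scarce. Hoxb6 had 5 and 19 counts in WT and 1 and 0 in K36M, a ratio of 21.3 (counting interval 3.47 to 876). Hoxb5 had 7 counts over the WT pair and none in K36M, at least 2.07-fold lower. Neither was tested under the filter, and without a filter both passed and Hoxc9 too, with 8 members called in all.

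Within HoxA, changes differed in size from gene to gene. Hoxa10, which blocks maturation of blood cells when forced on, had 46 and 72 counts in WT, 74 and 75 in K9M and 10 and 18 in K36M, and fell by 1.88 ± 0.40 (adjusted p = 0.00602). Hoxa5 had 96 and 84 counts in WT, 97 and 136 in K9M and 46 and 53 in K36M, and fell by 0.68 ± 0.24 (adjusted p = 0.0454), a call lost in 10 of 14 alternatives. Hoxa9 did not pass (431 and 496 counts in WT, 312 and 334 in K36M, log2 -0.34 ± 0.13, adjusted p = 0.0581), and Hoxa7, with 251 and 208 against 226 and 203, had 0.07 ± 0.16. Hoxa6, the fourth of the leading marrow genes, had 56 and 70 counts in WT, 74 and 97 in K9M and 44 and 44 in K36M (log2 -0.34 ± 0.24, adjusted p = 0.285). The 8 tested HoxA genes ranged from -1.88 to 0.07. For 8 of the 11 tested members both K36M mice lay below both WT mice on the TMM scale, which held for 38.7% of all genes tested. The median log2 change over the 11 was -0.62 and over all genes -0.02.

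The HoxC genes that appeared had nearly no reads elsewhere in marrow. Hoxc4, whose promoter window is given above, had 1 and 0 counts in WT, 3 and 0 in K9M and 24 and 14 in K36M. Both K36M mice lay above every other marrow library. It rose by a ratio of 42.8 (counting interval 7.24 to 1736; edgeR log2 5.07, adjusted p = 0.00621), and since it entered the test only through its K36M libraries, its passing the filter is tied to that difference. Hoxc9 had no count in the 4 WT and K9M mice and 14 and 9 in K36M, at least 8.64-fold higher than WT, and stayed untested under the filter. The genes between them in the cluster showed no such step: Hoxc6 had 7 and 2 counts in WT and 10 and 1 in K36M, Hoxc5 had 1 count in each pair and Hoxc8 none. Of the 26 members not tested in marrow, none other than Hoxc9, Hoxb6, Hoxb5 and Hoxc6 had over 8 counts in a library.

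Cell-type markers moved with these genes. Of 4 stromal markers tested in marrow 3 rose and 1 fell, and the summed CPM of the 5 on the list was 4.78 and 6.58 in WT, 6.50 and 5.21 in K9M and 27.9 and 39.3 in K36M. Granulocyte-monocyte markers (9 of 10 fell) summed to 19880 and 15483 in WT and 5168 and 3880 in K36M. Erythroid markers (7 of 10 rose) summed to 1406 and 2298 against 3173 and 3359. Mast cell markers (4 of 4 tested fell) summed to 295 and 266 against 83.2 and 67.8. Lymphoid markers (2 of 6 fell, Dntt and Il7r) summed to 131 and 81.6 against 61.7 and 42.4, with a median log2 change of 0.15. Megakaryocyte markers (2 of 6 rose and 2 fell) summed to 165 and 216 against 240 and 279. Stem and multipotent markers had 3 rises and 3 falls of 10 and summed to 603 and 570 against 399 and 448. None of the 10 stem, 10 erythroid or 5 stromal markers was at 0 in any library. Their part in the Hox result was not tested, and fewer cells of a type and less RNA per cell cannot be told apart in bulk RNA.

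**Figure D3:**
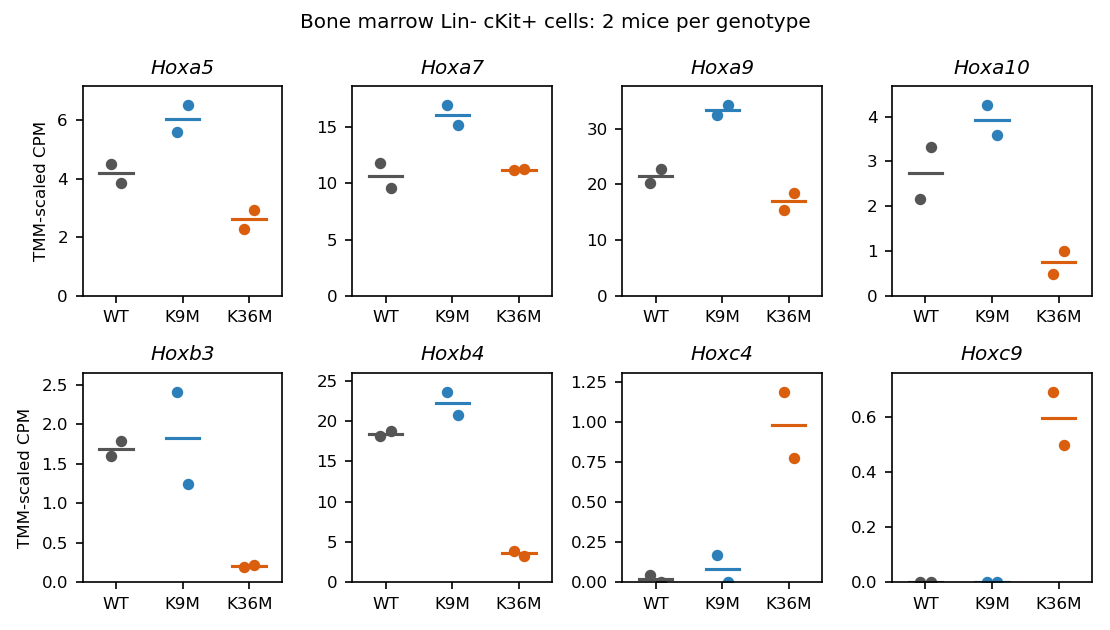
Values of 8 Hox genes in bone marrow Lin- cKit+ libraries, as TMM-scaled CPM (y, own scale per gene) by genotype (x); dots are 2 mice, bars their mean. Hoxb4 and Hoxb3 lie below WT in K36M, Hoxc4 and Hoxc9 appear there, and Hoxa9 and Hoxa7 are highest in K9M.

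In K9M marrow the tested members lay on the high side of WT, without passing the test. No member was called against WT by edgeR (1.01% of all genes tested were), with 5 of 11 at an unadjusted p under 0.05, all 5 higher. DESeq2 called 1, Hoxa9, and limma-voom none. Hoxa9 had 431 and 496 counts in WT and 564 and 716 in K9M, with log2 0.63 ± 0.13 (edgeR adjusted p = 0.0742, DESeq2 adjusted p = 0.0119, edgeR with no filter 0.00434). For 9 of 11 members both K9M mice lay above both WT mice, which held for 23.3% of all genes tested. The median over the 11 was 0.59 against -0.00 for all genes. Hoxa3 was at 0.86 ± 0.29 (30 and 38 counts in WT, 48 and 62 in K9M) and Hoxa7 at 0.59 ± 0.16 (295 and 317 counts in K9M), neither past the adjusted threshold. Hoxb4 was at 0.27 ± 0.14 and Hoxb3 at 0.10 ± 0.38. Stem and multipotent markers (2 of 10 rose, none fell, none at 0) summed to 758 and 875 CPM in K9M against 603 and 570 in WT. Lymphoid markers (0 of 6 passed, none at 0) summed to 251 and 513 against 131 and 81.6. Their part in the K9M values was not tested. Both comparisons use the same WT libraries.

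Compared with each other, K36M was lower than K9M in 9 members and higher in 1 (53.8% of all genes tested were called). Hoxb4 differed by -2.61 ± 0.16 and Hoxa9 by -0.97 ± 0.13, and the 1 higher was Hoxc4 (3 counts in K9M and 38 in K36M). Without K36M.1310 the count of 10 was 6. Summed over all members, Hox RNA was 64.9 and 68.2 CPM on the TMM scale in WT, 96.9 and 92.5 in K9M and 40.3 and 43.7 in K36M, so that both K9M mice were above and both K36M mice below the WT pair.

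Hox partners were read from lists of fixed genes. Of 10 TALE cofactors tested in K36M marrow, 4 rose and 2 fell, where 48% of all genes were called. Meis1, the leukemia cofactor, rose by 0.66 ± 0.08, and Meis3 by 3.39 ± 0.38 from 5 and 7 counts to 60 and 54. Of 18 trithorax and MLL genes 7 rose and 3 fell, with Kdm6b, an H3K27 demethylase, at 1.26 ± 0.08, Kmt2c at -0.56 ± 0.07 and Ash2l at 0.55 ± 0.07. Polycomb genes had 6 rises and 6 falls of 18, among them Jarid2 (-0.95 ± 0.07), Suz12 (0.56 ± 0.06) and Rnf2 (-0.70 ± 0.09). Of 7 H3K36 enzymes Nsd1 rose (0.42 ± 0.06) and 3 fell, Kdm2b (-0.28 ± 0.07) and Ash1l (-0.27 ± 0.08) among them. Genes flanking the clusters had 1 rise and 4 falls of 11, led by Snx10 (-1.38 ± 0.11), Calcoco1 (-1.14 ± 0.14) and Hibadh (-0.55 ± 0.07). Of 13 leukemia and stem-type genes 3 rose and 6 fell, with Cd34 at -1.32 ± 0.09 and Myct1 at -1.15 ± 0.16. In K9M marrow only Cd34 (0.53 ± 0.09) and Hlf (0.71 ± 0.12) of those lists passed.

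In K36M intestine, reads of Hoxb9 and Hoxc11 appeared, while HoxA reads were sparse both there and in K9M. Only 3 members passed the filter and 2 rose, against 23.3% of all genes tested, and both entered only through K36M libraries. Hoxb9 had 1 and 0 counts in WT, 0 and 0 in K9M and 12 and 78 in K36M. Mouse K36M.1553 carried most of them, and its partner still lay above all WT and K9M mice. The ratio was 107 (counting interval 18.6 to 4254; adjusted p = 0.0280), and without either WT mouse no member was called. Without K36M.1553 neither gene passed the filter. Hoxc11 had no count in WT or K9M and 10 and 12 in K36M, at least 8.68-fold higher (adjusted p = 0.0301).

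Shares of the clusters differed too. HoxB made up 41 of 140 and 9 of 45 Hox counts in the WT mice. Its share was 40.0% and 42.9% in K9M (of 45 and 21 Hox counts) and 68.4% and 81.6% in K36M (of 79 and 190). HoxA made up 67.9% and 75.6% in WT, 51.1% and 52.4% in K9M, and 12.7% and 7.90% in K36M. Summed HoxA CPM was 4.61 and 2.31 in WT, 1.19 and 0.629 in K9M, and 0.747 and 0.910 in K36M. For HoxB it was 1.99 and 0.610, 0.932 and 0.514, and 4.03 and 9.41. Hoxa5 had 13 and 7 counts in WT and 2 and 1 in K36M, and Hoxa10 had 19 and 6 against 1 and 3. Hoxa4 had 9 and 6, 7 and 1, and 0 and 4 counts in WT, K9M and K36M, and Hoxa6 had 6 and 3, 0 and 0, and 1 and 0. Hoxb4 had 23 and 2, 6 and 9, and 17 and 16, and its K36M change was 0.78 ± 0.87 (adjusted p = 0.551). Within HoxB, Hoxb7 had 3 counts over the WT pair and 15 in K36M, a ratio of 5.92 (counting interval 1.67 to 31.9), Hoxb5 2 and 11, and Hoxb6 7 and 0 in WT against 7 and 25 in K36M. Hoxb13 had 5 and 5 counts in WT and 7 and 13 in K36M. None of these but Hoxb4 was tested in the intestine libraries alone. No HoxD gene but Hoxd8, at most 4 counts, had a read in intestine. In the fit of all 18 libraries Hoxa3 (-2.38), Hoxa5 (-2.55), Hoxa9 (-2.40) and Hoxa10 (-2.47) fell, making 6 calls against 2. Hoxa10 was low in K9M as well, at 1 and 3 counts, and Hoxa5 at 4 and 1, with no member of 3 tested called in K9M (0.211% of all genes were). None of those 3 had an unadjusted p under 0.05, and DESeq2 and limma-voom called none.

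Markers moved here too. Summed CPM of mesenchyme markers was 5.48 and 0.407 in WT, 2.18 and 3.09 in K9M and 41.5 and 8.74 in K36M, with Lum at 0 in K36M and 1 of 5 tested risen (Pdgfra). Neuron and glia markers were 3.64 and 3.73, 1.76 and 1.89, and 47.3 and 40.5, nearly all Ret, with Sox10 at 0 in WT. Colon markers were 1181 and 1388, 720 and 813, and 83.0 and 97.5. Lymphocyte markers (4 of 5 tested fell) were 292 and 298 in WT, 236 and 300 in K9M and 62.4 and 31.5 in K36M. Duodenum and jejunum markers (1 rose and 1 fell of 5) were 6823 and 6351, 7341 and 6056, and 3127 and 3206. Both K36M mice were above every WT and K9M mouse in Hoxb9 and in mesenchyme markers. K36M.1553 was the higher in Hoxb9 and K36M.1485 in mesenchyme markers. Their part was not tested.

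Against K9M, the same pair rose in K36M (2 of 3 tested, 25.1% of all genes), Hoxb9 at least 37.0-fold and Hoxc11 at least 9.04-fold. Without either K9M mouse, or without K36M.1553, neither was called, and without K36M.1485 there was 1. Of TALE cofactors in K36M intestine 4 rose and 1 fell of 10, with Meis3 at 3.09 ± 0.49, Pbx4 at 2.39 ± 0.31 and Pbx3 at 2.12 ± 0.35. Cdx2, an intestinal regulator of Hox genes, fell by 0.91 ± 0.21, and the other ParaHox and Cdx genes tested, Cdx1 (0.41 ± 0.18) and Pdx1 (0.12 ± 0.64), did not pass. Trithorax and MLL genes had 2 rises and 3 falls of 18, Mllt3 at -2.12 ± 0.21, Ash2l at 1.34 ± 0.16 and Kmt2c at -0.88 ± 0.17. Polycomb genes had 4 rises and 3 falls of 17, Ezh2 at -1.46 ± 0.29, Cbx7 at 3.60 ± 0.62 and Jarid2 at -1.33 ± 0.16. Of 7 H3K36 enzymes Nsd1 rose (0.62 ± 0.15), Nsd3 fell (-0.53 ± 0.14) and Setd2 did not pass (0.43 ± 0.16). Flanking genes had 1 rise and 4 falls of 12, Snx10 at 1.87 ± 0.27, Skap2 at -0.93 ± 0.15 and Atf2 at -0.91 ± 0.19. Of 9 leukemia and stem-type genes 2 rose and 1 fell, Hlf at 2.33 ± 0.28 beside Pbx3 and Mllt3 above. Of 2 noncoding cluster genes tested Hoxb3os rose, from 3 to 21 counts (ratio 8.29, counting interval 2.47 to 43.4), and Hoxaas3 did not pass (21 and 19 counts).

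**Figure D4:**
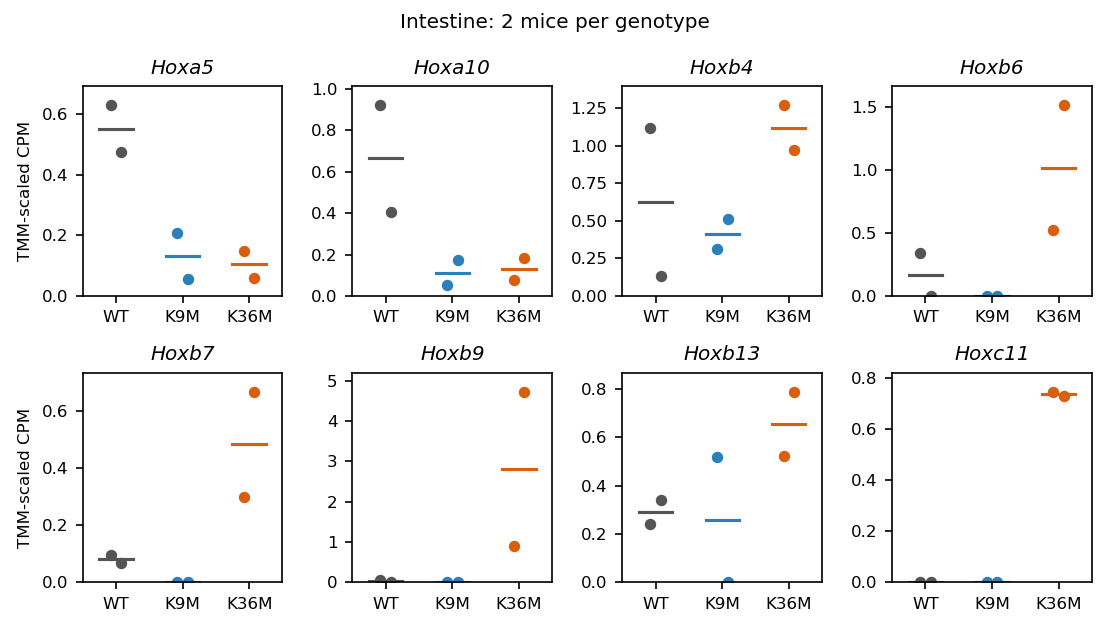
Values of 8 Hox genes in intestine, as TMM-scaled CPM (y, own scale per gene) by genotype (x); dots are 2 mice, bars their mean. Hoxb9 and Hoxc11 appear in the K36M mice, with 12 and 78 and with 10 and 12 counts, and Hoxa5 and Hoxa10 are low in K9M and K36M.

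In K36M testes, Hoxa3 fell and Hoxb3, Hoxa9 and Hoxc9 rose, 4 calls of 18 members tested (49.5% of all genes tested were called). Hoxb3 had 50 and 60 counts in WT, 43 and 50 in K9M and 82 and 125 in K36M, and rose by 1.12 ± 0.27 (adjusted p = 0.0147). Hoxa3 had 66 and 90 in WT, 80 and 93 in K9M and 36 and 17 in K36M, and fell by 1.35 ± 0.33 (adjusted p = 0.0159). Both K36M mice lay outside the WT and K9M range for each of these genes. Hoxa9 rose by 1.06 ± 0.29 (17 and 17 counts in WT, 9 and 11 in K9M, 31 and 31 in K36M, adjusted p = 0.0238) and Hoxc9 by 0.79 ± 0.27 (34 and 58 in WT, 42 and 45 in K9M, 58 and 78 in K36M, adjusted p = 0.0449). WT.1477 and K36M.1485 had equal raw Hoxc9 counts. Of 14 alternatives, the call was lost in 9 for Hoxc9, in 6 for Hoxa9 and in 2 each for Hoxa3 and Hoxb3. For 5 of 18 members both K36M mice lay above both WT mice on the TMM scale and for 4 below, against 39.9% and 39.3% of all genes tested. The calls lean on few mice: without WT.1476 or without WT.1477 none remained, without either K9M mouse 2, without K36M.1485 the count was 9 and without K36M.1553 it was 10. Exons of Hoxa3 overlap those of Hoxaas3 and other antisense genes, and exons of Hoxb3 those of Hoxb3os, which itself rose by 1.85 ± 0.30. How reads in these overlaps were assigned is not known.

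The leading testes genes did not pass the test. Hoxa4 had 862 and 1137 counts in WT, 1168 and 1225 in K9M and 1138 and 1030 in K36M, with log2 0.33 ± 0.11 (adjusted p = 0.0507). Hoxd8 had 833 and 1136, 1041 and 1101, and 746 and 390, with -0.59 ± 0.26 (adjusted p = 0.105). The K36M pair disagreed on Hoxd8, and K36M.1485 was the higher in the 5' HoxD genes as well: 119 against 44 counts of Hoxd9, 73 against 30 of Hoxd10 and 33 against 11 of Hoxd11. Hoxa6 had 24 and 18 counts in WT, 19 and 15 in K9M and 14 and 5 in K36M, and Hoxd9 34 and 69, 46 and 51, and 119 and 44, and neither passed (log2 -0.95 ± 0.53 and 0.89 ± 0.46). Without K36M.1553 Hoxd9 (1.39), Hoxd10 (1.33) and Hoxd11 (1.45) passed as rises. Without K36M.1485 Hoxd8 passed as a fall (-1.15). Hoxd13, which patterns digits and the genital tract, had 2 and 0 counts in WT and 10 and 7 in K36M, a ratio of 9.81 (counting interval 2.33 to 87.6), untested. The K36M mice also differed in markers. Spermatid markers were at 18277 and 27217 CPM on the TMM scale (WT 8722 and 8975). Of these 6, Prm1, Prm2, Tnp1 and Tnp2 rose, while Acrv1 (log2 0.02 ± 0.12) and Spaca1 (-0.15 ± 0.15) did not pass. Spermatocyte markers (5 of 6 fell) were at 910 and 404 (WT 1907 and 1882) and Sertoli markers (5 of 5 tested rose) at 359 and 475 (WT 157 and 164). Leydig markers (4 of 5 fell) were 64.5 and 46.2 against 456 and 359, and none of these markers was at 0. Their part was not tested.

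K9M testes called no member against WT (0.0678% of all genes tested were), with 2 of 18 at an unadjusted p under 0.05, Hoxd11 and Hoxa9, and none by DESeq2 or limma-voom. Hoxd11 had 11 and 16 counts in WT and 3 and 2 in K9M, log2 -2.54 ± 0.77, and passed only with the 2 genotypes fitted alone or without either K36M mouse. Both K9M mice lay below both WT mice for 10 of 18 members, against 18.9% of all genes. Against K9M, K36M was higher in 5 members and lower in 2 (49.2% of all genes), Hoxd11 at 3.45 ± 0.71, Hoxa9 at 2.00 ± 0.32 and Hoxb3 at 1.54 ± 0.27. Hoxb7 was lower by 2.03 ± 0.71, with 38 counts in K9M and 7 in K36M. Without K9M.1516 none of the 7 remained and without K9M.1519 there was 1.

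Partners in K36M testes moved both ways. TALE cofactors had 3 rises and 2 falls of 11, with Meis1 at 0.91 ± 0.17, Tgif2 at 1.08 ± 0.24 and Pbx4 at -0.88 ± 0.20. Trithorax and MLL genes had 7 rises and 8 falls of 18, Aff1 at 1.46 ± 0.14, Kdm6b at 0.83 ± 0.13 and Kmt2a at 0.75 ± 0.12. Polycomb genes had 5 rises and 6 falls of 17, among them Phc2 at 0.80 ± 0.13 and Cbx7 at -0.78 ± 0.13. Of 7 H3K36 enzymes 1 rose and 4 fell, Nsd1 at 0.72 ± 0.13, Kdm2b at -0.96 ± 0.19 and Ash1l at -0.51 ± 0.12. Of 11 leukemia and stem-type genes 3 rose, Hlf (1.09 ± 0.29) and Mllt3 (0.45 ± 0.12) beside Meis1. Of 5 noncoding cluster genes Hoxb3os rose and Hotair, which lies in HoxC, fell by 1.46 ± 0.45 (29 and 9 counts). Of 14 flanking genes 3 rose and 6 fell, among them Mtx2 next to HoxD (-0.71 ± 0.13), Nfe2 next to HoxC (1.05 ± 0.21) and Skap2 next to HoxA (-0.76 ± 0.17). Hoxd3os1, on the strand opposite Hoxd3 and overlapping its exons, was abundant in testes and did not pass (log2 0.25 ± 0.12). Hoxd3 had 10 and 18 counts in WT, and how reads in the overlap were assigned is not known.

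**Figure D5:**
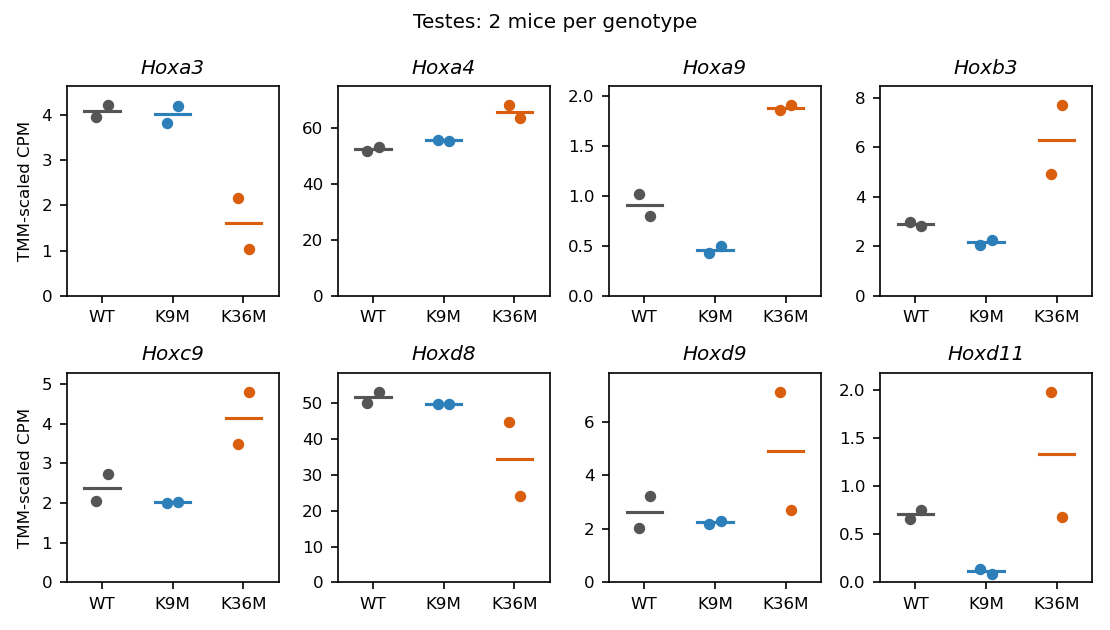
Values of 8 Hox genes in testes, as TMM-scaled CPM (y, own scale per gene) by genotype (x); dots are 2 mice, bars their mean. Hoxa3 is low and Hoxb3, Hoxa9 and Hoxc9 high in K36M, and the K36M mice differ in Hoxd8, Hoxd9 and Hoxd11.

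Whether the K36M change differed between tissues was tested as an interaction over all 18 libraries, on 24 members. Marrow against testes differed in Hoxb3 (-4.01 ± 0.66, adjusted p = 0.000938), Hoxc4 (5.72 ± 1.37) and Hoxc9 (no WT marrow count), 3 calls where 24.8% of all genes were called, and 6 without either WT intestine library. Hoxb3 thus fell in marrow and rose in testes, and the tests of both changes and of their difference passed. Hoxc4 had 1 count over the WT marrow pair and passed the marrow filter only through K36M, so its call here is tied to that difference. Marrow against intestine differed in 5, Hoxb3, Hoxb4, Hoxb5, Hoxb6 and Hoxc9 (17.2% of all genes), with Hoxb4 at -2.88 ± 0.77 resting on the most counts. That count was 0 without marrow K36M.1312, 1 without marrow WT.1266 or either K36M intestine, 2 without marrow K36M.1310, marrow WT.1262 or either WT testes library, and 3 without intestine WT.1477 or either K9M testes library. Hoxc11 entered the test of intestine against testes through its K36M intestine libraries, so its call there is tied to that difference. Hoxb9 passed the filter of the intestine libraries only through K36M as well. Intestine against testes differed in 4, Hoxa9, Hoxb7, Hoxb9 and Hoxc11 (26% of all genes). It was 1 without either WT intestine library or testes WT.1477, and 2 without intestine K36M.1553. With the mouse as a block over the 12 libraries none was called, with 4 of 20 at an unadjusted p under 0.05, and without the block 4. With all 18 libraries in edgeR, none of the K9M changes passed a test of difference between tissues (0.193% of all genes between intestine and testes, 0.452% between marrow and intestine, 0.132% between marrow and testes), with 3, 7 and 2 of 24 at an unadjusted p under 0.05. For marrow against intestine, DESeq2 called 1 (Hoxa9, 2.89 ± 0.83) and limma-voom 2 (Hoxa6 and Hoxa7). Without intestine WT.1477 edgeR called Hoxa9 there as well (3.65 ± 0.57, adjusted p = 0.00540).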

How the data were processed

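Per the submitters' processing notes, reads were aligned with STAR and counted with HTSeq on mm9. Versions, strand and annotation release are not given in the sources used here. The authors deposited raw counts per gene ID, 1 table per library. The 5 entries that name no gene stayed out of totals and tests: reads in no feature were 9.89% to 26.0% of all entries, ambiguous reads 2.21% to 4.17% and reads without a unique alignment 15.3% to 29.1%. Symbols came by gene ID from GENCODE M21 on GRCm38, which named 32897 of 37620 IDs and gave exon lengths, and promoters from RefSeq. Members and lists were chosen with earlier results of these data known.

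Each tissue's 6 libraries were fitted in edgeR 4.0.16 (R 4.3.3) after filterByExpr, scaled by TMM, with the robust quasi-likelihood test on 3 genotype means and Benjamini-Hochberg adjustment over all genes, threshold 0.05. The 6 WT libraries and all 18 were fitted likewise. The SE of an edgeR log2 change is approximate: the size of the change over the square root of the test's F statistic. Members called against WT in a tissue, or among its 4 highest in WT per kilobase, are named with every library's count, and of each list the 3 genes of smallest adjusted p where it has a call. Other members singled out were chosen after their values were seen. The labels name separate mice and no batch. Intestine and testes of a number came from 1 mouse, and deviations from group means correlated between the tissues at 0.066 (WT), 0.117 (K9M) and -0.0703 (K36M). The marrow, testes and WT fits were run on simulated counts, in which only well-counted genes were changed. The intestine fit and the fit of all 18 libraries were not simulated. The simulation does not bear on calls that rest on few reads. Alternatives were DESeq2 1.42.0, limma-voom (limma 3.58.1), other scaling and filters, other sets of libraries, the mouse block and each library left out. Some genes are not reported here.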

Additional observations from a re-analysis of the deposited data

Results flagged for a closer look

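The following K36M changes differed between 2 tissues by an interaction test in edgeR (adjusted p under 0.05, all 18 libraries), which is why they are listed; values are differences of log2 changes. Between intestine and testes they were Hoxa9 (-3.42), Hoxb9 (5.54), Hoxb7 (4.03) and Hoxc11 (7.10, no WT intestine count, in the test through K36M intestine). Between marrow and intestine they were Hoxb6 (-6.27), Hoxb4 (-2.88), Hoxb3 (-4.01), Hoxc9 (9.08, no count in WT marrow or K36M intestine) and Hoxb5 (-6.80, no count in K36M marrow). Between marrow and testes they were Hoxb3 (-4.01), Hoxc9 (5.44, no WT marrow count) and Hoxc4 (5.72, past the marrow filter only through K36M). Where a group has no count the size depends on the prior count of the fit and is no measured fold. Others rest on few reads as well. The smallest group held 1 count for Hoxb9, Hoxb6 and Hoxc4. It held 2 for Hoxb3 between marrow and intestine, 3 for Hoxb7 and 4 for Hoxa9. The intestine and testes differences did not pass with the mouse as a block.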

How the results depend on the processing

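Of 11 calls of single members in K36M, 148 values under alternatives kept the call in 112, lost it in 36 and reversed 0. In marrow, the calls of Hoxb4, Hoxb3 and Hoxa10 were kept in each of 14 alternatives. Hoxc4, which passes the filter only through K36M, was not tested with 1 CPM in 2 libraries, and its adjusted p reached 0.0495 without K36M.1310. Settings in which a gene was not tested are left out of the 148 and are not counted as lost. Hoxc11 had 11 values, Hoxb9 12 and Hoxc4 13, against 14 for every other call. Under DESeq2 the count of called members was 1 in marrow K9M against WT, 1 in intestine K36M against WT, 1 in intestine K36M against K9M, 2 in testes K36M against WT and 3 for the marrow and intestine interaction. With no filter it was 8 in marrow K36M, 1 in marrow K9M, 4 in intestine K36M against K9M and 3 for that interaction. With 1 CPM in 2 libraries it was 0 for both intestine K36M comparisons, 2 for the intestine and testes interaction and 3 for the marrow and intestine one. With all 18 libraries fitted it was 6 in intestine K36M against WT, 4 against K9M and 2 in testes K36M. With 2 genotypes alone, testes K9M had 1. WT intestine against marrow gave 11 on library size and 14 with limma-voom, whose 7 rises include Hoxd3, Hoxd9, Hoxd10 and Hoxd11, at 0 counts in both groups. The mouse as a replicate block took the intestine and testes interaction from 4 to 0 and changed no other call count by over 1.5 times (12 against 13 for WT intestine and testes); the cause was not tested.

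Leaving out 1 library, where a lone library is assumed to vary like the other groups, gave ranges of 6 to 7 (WT intestine and marrow), 9 to 15 (WT intestine and testes), 11 to 21 (WT testes and marrow), 4 to 6 (marrow K36M against WT), 6 to 12 (marrow K36M against K9M), 0 to 1 (intestine K36M against WT), 0 to 3 (intestine K36M against K9M), 0 to 10 (testes K36M against WT and against K9M), 0 to 1 (testes K9M and the K9M interaction of marrow and intestine), and 1 to 5, 0 to 5 and 3 to 6 for the interactions of intestine and testes, marrow and intestine, and marrow and testes. Library-size scaling moved the split of all called genes from 7133 higher and 6035 lower to 4816 and 9075 for WT intestine against marrow, from 2355 and 3177 to 3281 and 2335 for the intestine and testes interaction, and from 2085 and 1581 to 1346 and 2115 for the marrow and intestine one.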
